A study of Mus musculus with 12 samples.

Results

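Immune checkpoints are pairs of surface proteins that restrain T cells and macrophages, and 10 of their genes were followed through normal mouse lung and mouse lung tumors. The genes were chosen by name and matched to Ensembl identifiers through GENCODE release M21, and all 10 were found among the 30399 genes listed and the 23674 tested. They comprise the ligands Cd274 (PD-L1), Pdcd1lg2 (PD-L2), Cd276 (B7-H3) and Cd47, and the receptors Pdcd1 (PD-1), Ctla4, Lag3, Havcr2 (TIM-3), Tigit and Sirpa. The study makes mouse models of lung cancer with CRISPR/Cas9 delivered without a virus, whereby a nuclease cuts chosen genes and imprecise repair disables them. The series compares 5 samples labelled normal lung (titles beginning CTL) with 7 samples labelled tumor, all of them mouse tissue read as poly-A selected RNA. Which genes were targeted in which sample, and the strain, age and sex of the mice, are not given in the sources used here. The titles carry a number that tumors 3 and 4 share (159) and that tumors 5, 6 and 7 share (201), and tumors 1 and 7 carry the Spanish word for trachea. Nothing in the labels says that the samples came from separate animals, so p-values measure only the spread between these samples.

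PD-1 on activated T cells binds PD-L1 and PD-L2, and the phosphatases it recruits dampen signalling from the T cell receptor. CTLA-4 competes with CD28 for CD80 and CD86, LAG-3 binds MHC class II, TIGIT binds the poliovirus receptor and nectin proteins, and TIM-3 is carried by T cells and by myeloid and dendritic cells. CD47 on most cells binds SIRP alpha on macrophages and holds back phagocytosis. Neuroendocrine lung tumors are known for few infiltrating T cells and low antigen presentation.

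In the tumors 3 of the 10 genes were higher and 4 were lower than in normal lung, and 3 were not called. Lag3 rose most, to 12.9 times the normal lung mean, followed by Tigit and Cd276. Pdcd1lg2, Cd274, Sirpa and Cd47 fell. Pdcd1, Ctla4 and Havcr2 were low in tumors 1 to 5 and high in tumor 7, and did not pass the test. A gene was called at a limma adjusted p under 0.05 on log2(normalized count + 1), with adjustment over all genes tested. Over all of them the shares were 31.4% higher, 30.1% lower and 61.5% in either direction, so a share of 3 or 4 in 10 is near the background and is not a result about the 10 genes as a group. In limma their median log2 fold change was -1.32, against 0.04 over all genes tested. It lies between the values of Ctla4 (-1.25) and Havcr2 (-1.40), which were not called and turned positive in edgeR and DESeq2. The sign of this median thus depends on the tool. In bulk tissue, fewer cells of a type and less RNA per cell cannot be told apart.

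Reads counted in genes numbered 11126432 to 17032234 per normal lung and 13093843 to 24217633 per tumor, and 3 reads correspond to at most 4.85 and 3.57 normalized counts in these groups. Such floors cover counting error only. The tissue labels were checked against defining markers. All 8 neuroendocrine markers were higher in tumor, with a summed level of 30066 to 117626 normalized counts against 197 to 333, and all 6 lung epithelium and all 6 endothelium markers were lower. Tumor 7 stood apart in markers of other cells: its macrophage and monocyte markers summed to 20004 normalized counts and its cardiac muscle markers to 33146, both above every other sample. Of that 20004, C1qa gave 7788 and C1qb 6805, while Csf1r (1773), Siglecf (69.2) and Ccr2 (266) lay below every normal lung. As a mean of log2 values the macrophage and monocyte list stood at 9.34 in tumor 7, within the 8.95 to 10.23 of normal lung. The T cell markers of tumor 7, at 3042, lay within the 1790.0 to 3196 of normal lung, while tumors 1 to 5 had 129 to 320.3. Of the Y chromosome, 4 genes were examined, and they were expressed in 1 of the 7 tumors but in 4 of the 5 normal lungs, so tissue and sex are partly confounded.

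**Figure D1:**
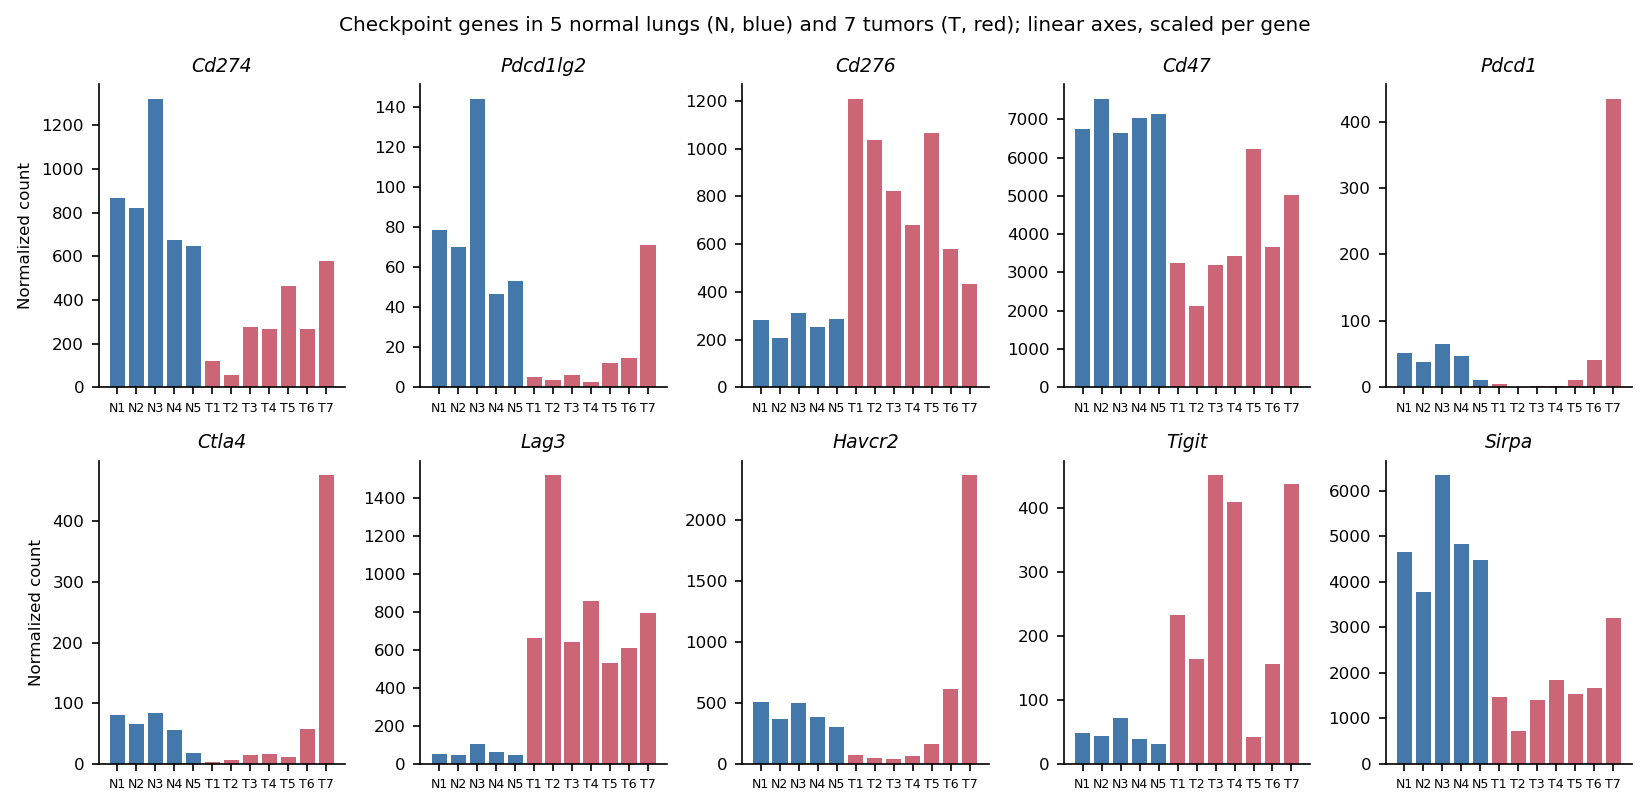
Normalized counts (y axis, linear, scaled per gene) of the 10 checkpoint genes in normal lungs N1 to N5 (blue) and tumors T1 to T7 (red), 1 bar per sample. Lag3 and Cd276 were higher in all 7 tumors than in every normal lung, while Pdcd1, Ctla4 and Havcr2 peaked in tumor 7, at 434, 476 and 2368.

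The promoters of these genes differ in composition, and 4 are shown because they run from 5 to 30 CG dinucleotides and belong to 2 genes that were higher in tumor (Cd276, Tigit) and 2 that were lower (Cd47, Cd274). Sequences are the 250 bases upstream of the annotated start, from RefSeq on GRCm38.p6, a different build from the GRCm39 named for the counts, and 8 of the 10 genes had an entry. Capitals mark CG dinucleotides, whose density separates promoters of broadly used genes from those of many tissue-restricted ones. The Cd276 window (chr9:58555034-58555283, minus strand) reads:
Cd276: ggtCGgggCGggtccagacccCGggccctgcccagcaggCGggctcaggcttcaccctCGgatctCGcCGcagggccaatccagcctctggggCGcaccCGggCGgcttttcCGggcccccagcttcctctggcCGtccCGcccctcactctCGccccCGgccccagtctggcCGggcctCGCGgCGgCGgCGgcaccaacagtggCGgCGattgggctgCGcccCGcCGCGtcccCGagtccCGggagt
The first Cd47 window (chr16:49855404-49855653, plus strand) reads:
Cd47: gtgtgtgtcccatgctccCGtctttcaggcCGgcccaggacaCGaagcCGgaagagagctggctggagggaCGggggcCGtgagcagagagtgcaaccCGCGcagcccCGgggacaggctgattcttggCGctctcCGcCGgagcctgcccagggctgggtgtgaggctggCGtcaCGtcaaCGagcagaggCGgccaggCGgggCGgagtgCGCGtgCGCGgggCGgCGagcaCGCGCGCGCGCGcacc
The Cd274 window (chr19:29367188-29367437, plus strand) reads:
Cd274: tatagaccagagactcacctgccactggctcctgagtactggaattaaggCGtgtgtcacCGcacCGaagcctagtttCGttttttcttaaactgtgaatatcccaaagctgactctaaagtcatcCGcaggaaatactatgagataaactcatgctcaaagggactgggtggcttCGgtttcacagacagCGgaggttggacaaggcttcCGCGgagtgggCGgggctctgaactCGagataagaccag
The Tigit window (chr16:43664185-43664434, minus strand) reads:
Tigit: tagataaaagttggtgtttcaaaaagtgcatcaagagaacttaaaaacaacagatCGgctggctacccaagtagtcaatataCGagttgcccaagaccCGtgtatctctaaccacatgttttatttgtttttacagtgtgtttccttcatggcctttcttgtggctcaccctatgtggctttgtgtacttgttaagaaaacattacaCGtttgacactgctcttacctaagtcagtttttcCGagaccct
Cd276 and Cd47 held 29 and 30 CG dinucleotides, a number that 6.78% and 5.94% of 32851 such windows reach. Cd274 held 11, a number that 35.6% of windows reach, and Tigit held 5, near the median of 6 over all windows. Ctla4 held 7, Pdcd1 and Pdcd1lg2 held 3 each, and Havcr2 held 2.

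Among the ligands, PD-L1 is the inducible ligand of PD-1 on epithelial, endothelial and myeloid cells. Normalized counts of Cd274 (ENSMUSG00000016496) were 867, 820.3, 1319.5, 674 and 645 across normal lungs 1 to 5, against 120.3, 58.4, 275, 268, 462, 268 and 578 across tumors 1 to 7. Every tumor lay below every normal lung, with tumor 7 the highest and tumor 2 the lowest of the tumors. For Cd274 limma estimated -1.84 ± 0.47 (log2 fold change ± SE; adjusted p = 0.00420). The groups lay apart in this way for 5 of the 10 checkpoint genes, 3 below and 2 above, against 38.4% of all genes tested, 18.4% below and 20.1% above. In RefSeq the span of Cd274 overlaps by 5.19 kb that of Plgrkt on the opposite strand, but in the GENCODE M21 gene models it overlapped no other listed gene. Annotation and use of the strand in counting are not stated, so whether the count of Cd274 holds reads of Plgrkt is uncertain. Plgrkt itself changed by -0.78 (adjusted p = 0.0155).

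PD-L2 is the second ligand of PD-1, carried mainly by dendritic cells and macrophages, and its gene lies beside Cd274. Normalized counts of Pdcd1lg2 (ENSMUSG00000016498) were 78.7, 69.9, 143.7, 46.6 and 52.9 across normal lungs 1 to 5, against 5.06, 3.57, 5.95, 2.69, 12.1, 14.8 and 71.1 across tumors 1 to 7. Tumors 1 to 6 lay below every normal lung and tumor 7 lay within their range. The values of tumors 2 and 4 rested on 3 reads each. For Pdcd1lg2 limma estimated -2.86 ± 0.65 (log2 fold change ± SE; adjusted p = 0.00186), the largest decrease of the 10 genes. The decreases of Cd274 and Pdcd1lg2 were smaller in count tests on 11 samples, with log2 fold changes of -1.47 and -1.96 in edgeR, and both passed there (adjusted p = 0.0186 and 0.0428).

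B7-H3 is a B7 family protein of many tumor cells and of stroma, whose receptor is not settled. Normalized counts of Cd276 (ENSMUSG00000035914) were 281, 205, 312, 253 and 285 across normal lungs 1 to 5, against 1208, 1035, 824, 678, 1066, 579.5 and 433 across tumors 1 to 7. The groups did not overlap, and tumor 7 had the lowest tumor value. The mean rose from 267 ± 40.4 (SD, n = 5) to 832 ± 284 (SD, n = 7), a log2 fold change of 1.57 (SE 0.25, limma adjusted p = 1.05e-04). An opposite-strand gene of low counts, Gm10657 (mean 2.78), shares 11.4% of its exon bases. Of the 4 ligands Cd276 was the 1 that rose.

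CD47 is carried by most cells. Normalized counts of Cd47 (ENSMUSG00000055447) were 6742, 7529, 6644, 7026 and 7146 across normal lungs 1 to 5, against 3234, 2135, 3205, 3428, 6227, 3657 and 5016 across tumors 1 to 7. The normal lungs were close together, all tumors lay below them, and tumors 5 and 7 came nearest. The log2 fold change of -0.94 (SE 0.21, limma adjusted p = 0.00182) was the smallest of the 7 that passed.

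SIRP alpha, the receptor of CD47, marks macrophages, monocytes and some dendritic cells, and is also found on neurons. Normalized counts of Sirpa (ENSMUSG00000037902) were 4652, 3769, 6341, 4830.1 and 4485 across normal lungs 1 to 5, against 1478, 714, 1397, 1838, 1529, 1672 and 3212 across tumors 1 to 7. All tumors were below all normal lungs, with tumor 7 again the highest tumor. For Sirpa limma estimated -1.61 ± 0.28 (log2 fold change ± SE; adjusted p = 2.31e-04). Sirpa belongs to a family of genes of similar sequence, whose reads may be shared. The extent of such sharing was not examined, so the level of Sirpa is uncertain. Ligand and receptor of the CD47 and SIRP alpha pair were both lower in tumor.

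Among the receptors of lymphocytes, LAG-3 restrains activated T cells and is also carried by NK cells and plasmacytoid dendritic cells. Normalized counts of Lag3 (ENSMUSG00000030124) were 52.9, 49.5, 103, 60.7 and 44.8 across normal lungs 1 to 5, against 662, 1519, 640.5, 859, 531, 609 and 796 across tumors 1 to 7. Every tumor was more than 5 times above the highest normal lung. For Lag3 limma estimated 3.65 ± 0.28 (log2 fold change ± SE; adjusted p = 1.26e-07). The spread among tumors, an SD of 0.50 log2 units, was like that among normal lungs, 0.47.

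TIGIT is a receptor of T and NK cells. Normalized counts of Tigit (ENSMUSG00000071552) were 49.0, 44.1, 71.1, 38.1 and 31.0 across normal lungs 1 to 5, against 232, 164, 450.1, 409, 42.1, 156 and 437 across tumors 1 to 7. Tumor 5 lay within the normal lung range and the other 6 lay above it. For Tigit limma estimated 2.23 ± 0.52 (log2 fold change ± SE; adjusted p = 0.00219). Tumors 5, 6 and 7, which share a title number, held the lowest value and the second highest.

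Lag3 and Tigit were high in tumors where genes of the T cell receptor complex were at or near 0. Cd3e, a defining T cell gene, was at 0 in tumors 1, 2 and 3, and Cd3d and Cd3g were at most 1.27 normalized counts there. Other genes of the T cell list remained measurable in tumors 1, 2 and 3: the kinase genes Lck (108, 36.9 and 127 normalized counts) and Zap70 (86.1, 31.0 and 26.8), and Cd4 (63.9, 41.7 and 35.7), each below all normal lungs. Behind the Lag3 values of tumors 1 and 2 stood 1046 and 1275 reads, and behind those of Tigit 367 and 138. In tumors 1, 2 and 3, 2, 4 and 2 of the 9 T cell markers and 1, 2 and 3 of the 5 NK cell markers were at 0. The NK cell list summed to 5.96 to 110.2 normalized counts in tumors against 453 to 718 in normal lung, and all 5 of its genes were lower. The 3 measured B cell markers summed to 28.8 to 463 against 1615 to 4033. Levels were then set against the T cell list, as log2(value + 1) of the gene minus the mean over the 9 markers. Lag3 relative to T cells stood at -2.01 ± 0.39 in the normal lungs and at 5.41 ± 2.12 in the tumors (SD, n = 5 and 7). The gap of 7.42 had an exact two-sided permutation p of 0.00126, the smallest the 792 splits can give (adjusted over 9 such pairs 0.00284), and all 7 tumors were above all normal lungs. For Tigit relative to T cells the gap was 5.99 (exact permutation p = 0.00126, adjusted 0.00284), with 7 of 7 tumors above. With markers near 0 reads these differences depend on the pseudocount, and 0.1 in place of 1 gave 8.01 and 6.59. In these same samples Lag3 and Tigit were already called higher and 8 of 9 T cell markers lower. The separation of Lag3 and Tigit relative to T cells was thus largely set beforehand, and its permutation p-values add no separate support.

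**Figure D2:**
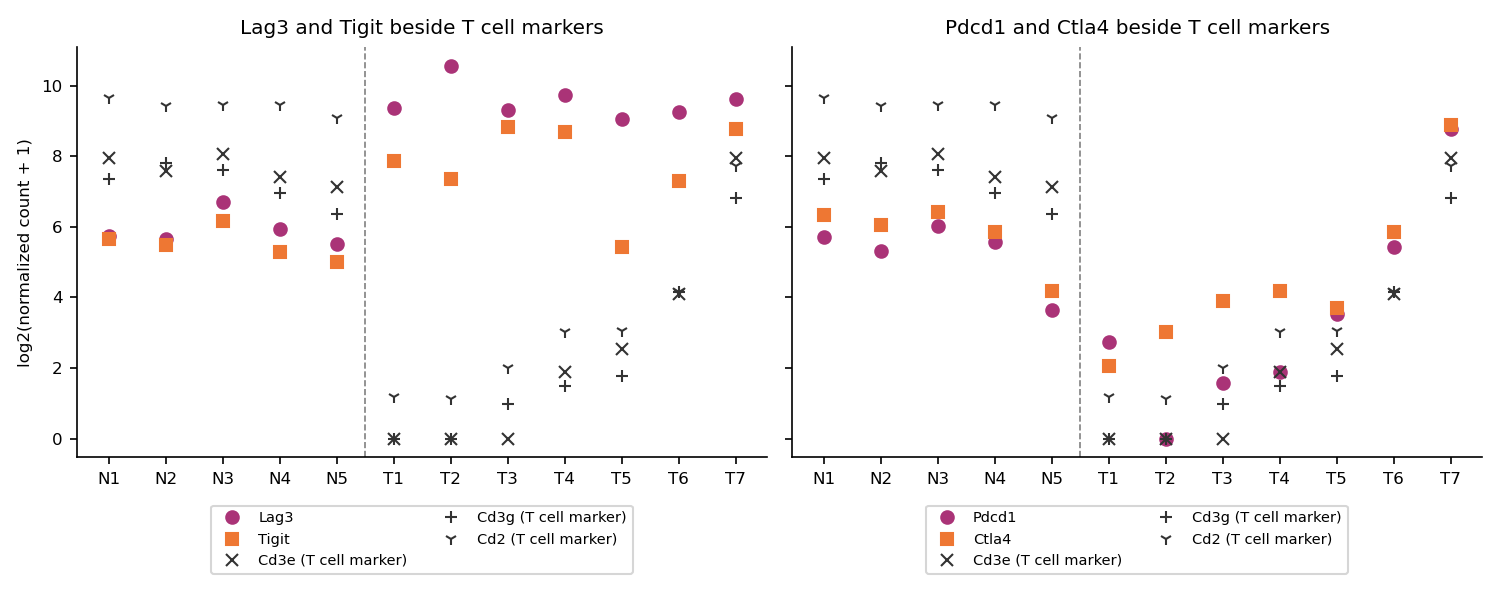
log2(normalized count + 1) (y axis) of Lag3 and Tigit (left) and Pdcd1 and Ctla4 (right), coloured, beside the T cell markers Cd3e, Cd3g and Cd2, dark, in normal lungs N1 to N5 and tumors T1 to T7. In tumors 1 to 3 Cd3e is at 0 while Lag3 stands at 662, 1519 and 640.5 normalized counts; Pdcd1 and Ctla4 are low there and reach 434 and 476 in tumor 7.

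The chromosomal neighbours of Lag3 and Tigit are given because reads can be assigned across genes that touch or overlap, and they were examined after their values were seen. Ptms, the gene of the chromatin protein parathymosin, lies 1.24 kb from Lag3 on the same strand in the annotation used, and is abundant, with 11337 ± 2124 normalized counts in the normal lungs against 18887 ± 5417 in the tumors (SD, n = 5 and 7), a log2 fold change of 0.71 (limma adjusted p = 0.00723). Lag3 was 0.358% to 0.988% of Ptms in normal lung and 2.60% to 5.51% in tumors, above all normal lungs in 7 of 7 tumors. The part of Ptms reads in the rise of Lag3 was not tested. Cd4, on its other side, changed by -2.14 (adjusted p = 0.00296). Tigit overlaps by 8.26 kb in RefSeq the span of Zbtb20, a transcription factor gene on the opposite strand. Zbtb20 rose from 9265 ± 1395 to 32429 ± 12898 normalized counts, a log2 fold change of 1.68 (adjusted p = 3.66e-04). Tigit was 0.267% to 0.860% of Zbtb20 in normal lung and 0.164% to 1.85% in tumors, and these ranges overlap, with 4 of 7 tumors above. In the GENCODE M21 gene models Tigit overlapped no other listed gene. Since the annotation and use of the strand in counting are not stated, whether reads of Tigit and Zbtb20 were kept apart is unknown. The part of Zbtb20 in the rise of Tigit was not tested.

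PD-1 and CTLA-4 are the receptors of T cells targeted by the checkpoint antibodies in wide use. Normalized counts of Pdcd1 (ENSMUSG00000026285) were 51.6, 38.7, 64.6, 46.6 and 11.5 across normal lungs 1 to 5, against 5.70, 0, 1.98, 2.69, 10.5, 41.8 and 434 across tumors 1 to 7. Tumors 1 to 5 lay below every normal lung, tumor 6 lay within and tumor 7 far above. Tumor 5, at 10.5 (13 reads), was close to normal lung 5, at 11.5 (10 reads). Tumor 2 had 0 reads, which allows up to 3.57 normalized counts. The log2 fold change of -1.84 (SE 1.20, limma adjusted p = 0.196) did not pass.

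Normalized counts of Ctla4 (ENSMUSG00000026011) were 80.0, 65.6, 84.0, 56.4 and 17.2 across normal lungs 1 to 5, against 3.17, 7.15, 13.9, 17.1, 12.1, 57.3 and 476 across tumors 1 to 7. Tumors 1 to 5 lay below every normal lung, tumor 6 within and tumor 7 above. Tumor 4, at 17.1 (19 reads), was nearly equal to normal lung 5, at 17.2 (15 reads). For Ctla4 limma estimated -1.25 ± 0.95 (log2 fold change ± SE; adjusted p = 0.270). In normal lung 5 both genes were lowest.

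TIM-3 is shared by T cells and by myeloid and dendritic cells. Normalized counts of Havcr2 (ENSMUSG00000020399) were 511, 369.9, 496, 389 and 304 across normal lungs 1 to 5, against 70.3, 48.8, 37.7, 63.8, 163, 615 and 2368 across tumors 1 to 7. Tumors 1 to 5 lay below every normal lung, and tumors 6 and 7 lay above. For Havcr2 limma estimated -1.40 ± 0.87 (log2 fold change ± SE; adjusted p = 0.180). The highest tumor value was 62.8 times the lowest.

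The calls of these 3 receptors depended on tumor 7 and on how same-numbered tumors were treated. Without tumor 7 Pdcd1, Ctla4 and Havcr2 were lower in tumor, with log2 fold changes of -2.73, -1.98 and -2.05 (limma adjusted p = 0.010, 0.0135 and 0.00795), and 7 of the 10 genes were called lower. Over all genes 32.6% were then higher and 32.1% lower. With tumor 7 kept and same-numbered tumors averaged, Pdcd1 and Havcr2 were also called lower (-2.66 and -1.99, limma adjusted p = 0.0408 and 0.0224), while Ctla4 was at -1.95 (0.0502). In edgeR on the recovered reads of 11 samples the 3 fold changes turned positive, at 1.09, 0.78 and 0.54, and did not pass (adjusted p = 0.481, 0.558 and 0.631). Of all genes, 34.9% were higher and 26.3% lower in edgeR, 30.6% and 24.7% in DESeq2, and 32.1% and 32.0% in limma without the 2 trachea-titled tumors. Some cell type markers were, like these receptors, highest among the tumors in tumors 6 and 7. Dendritic cell markers summed to 594 to 1246 normalized counts in tumors 1 to 5, 3886 in tumor 6 and 9759.7 in tumor 7. The normal lungs had 3759 to 4267. Clec9a gave 3905 of the sum of tumor 7, where every marker of the list except Cd209a lay above all normal lungs. Cd209a was at 1.35 in tumor 6 and 10.2 in tumor 7, against 135 to 344 in normal lung. In tumor 6 Ccr7 (219) also lay below every normal lung. The sums of macrophage and monocyte markers were highest in tumors 6 and 7 only in part, with 5991 in tumor 4 and 5076 in tumor 6. Macrophage and monocyte markers summed to 892 to 5991 in tumors 1 to 6 and 20004 in tumor 7, against 7100.1 to 17435 in normal lung. Of these 10 markers 8 were lower in tumor, and Siglecf was at 0 in tumors 1 to 4. Cd8a, the gene of cytotoxic T cells that a dendritic cell subset also carries, had 3.17, 0, 0.991, 5.39, 100.3, 489 and 1284 normalized counts in tumors 1 to 7. The part of these cells in the levels of the receptors was not tested.

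Set against the T cell list, the receptors that were low in most tumors stood above their normal lung level. In these same samples 8 of 9 T cell markers and 8 of 10 macrophage and monocyte markers were already called lower. Higher values relative to these lists were thus partly set beforehand, and their permutation p-values add no separate support. Pdcd1 rested on 9, 0 and 3 reads in tumors 1, 2 and 4, and Ctla4 on 5, 6 and 19. Pdcd1 relative to T cells stood at -2.67 ± 0.63 in the normal lungs and at -0.74 ± 1.08 in the tumors (SD, n = 5 and 7), a gap of 1.93 (exact permutation p = 0.00631, adjusted 0.0114), with 6 of 7 tumors above all normal lungs. That call was lost with a pseudocount of 0.1 (adjusted p = 0.0519), and over all alternatives the adjusted p ran from 0.00284 to 0.0519. For Ctla4 the difference was 2.52 and for Havcr2 2.37 (exact permutation p = 0.00126, adjusted 0.00284, for each), with 7 of 7 tumors above. Relative to the macrophage and monocyte list, Havcr2 was 1.49 higher (exact permutation p = 0.0126, adjusted 0.0189; 6 of 7 tumors above). Sirpa relative to macrophages and monocytes was 1.28 higher (exact permutation p = 0.0366, adjusted 0.0471; 6 of 7 tumors above), and this call was lost with a pseudocount of 0.1 (adjusted p = 0.0511) and on leaving out any normal lung or any of tumors 1 to 5, where the adjusted p ran from 0.0506 to 0.0818. Cd274 relative to macrophages and monocytes was 1.05 higher without passing (exact permutation p = 0.0871, adjusted 0.0980), and passed without tumor 7 (1.29, adjusted p = 0.0219, over all alternatives 0.0204 to 0.205). Pdcd1lg2 differed by 0.03 (exact permutation p = 0.961).

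**Figure D3:**
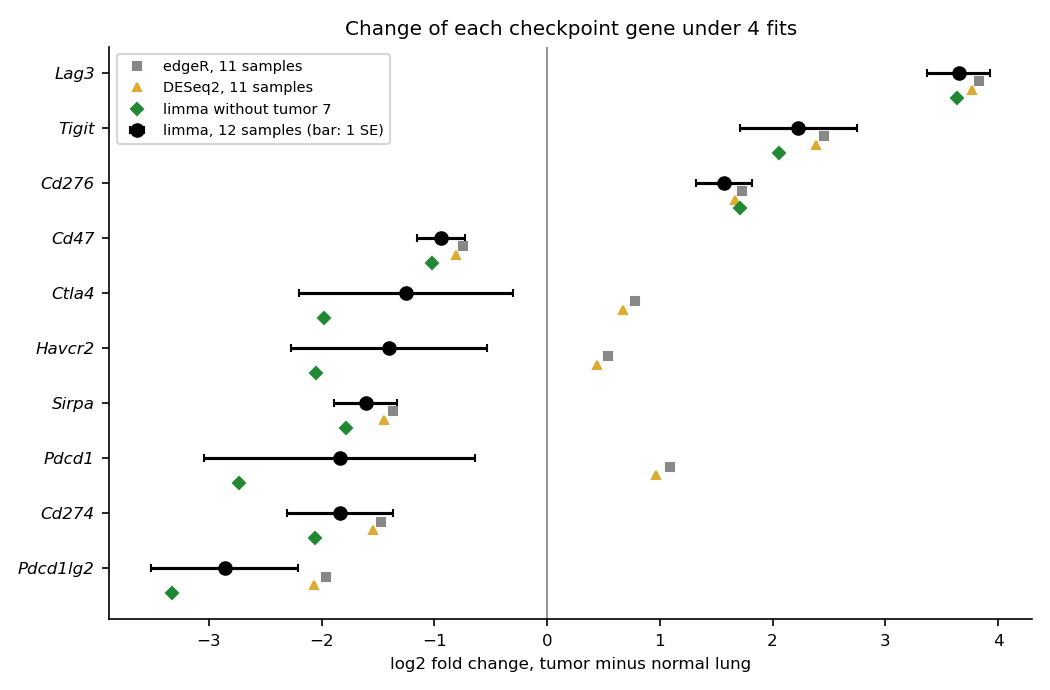
log2 fold change of each gene, tumor minus normal lung (x axis), by limma on 12 samples (black, bar 1 SE), edgeR and DESeq2 on the recovered reads of 11 samples, and limma without tumor 7. The 7 called genes keep their side of 0 in these 4 fits, whereas Pdcd1, Ctla4 and Havcr2 change sign between limma (-1.84, -1.25 and -1.40) and edgeR (1.09, 0.78 and 0.54).

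Levels of different genes were compared as normalized counts per kb of exon, with exon lengths from GENCODE M21. In normal lung Cd47 (1118 ± 56.0 per kb, SD, n = 5) and Sirpa (981 ± 192 per kb) were highest and overlapped. Cd274 (178 to 364 per kb) and Havcr2 (112 to 188 per kb) came next and overlapped by a small margin. The other 6 lay below them: Cd276 (56.1 to 85.2 per kb), Tigit (33.8 to 77.3 per kb), Pdcd1lg2, Lag3, Ctla4 and Pdcd1 followed, each overlapping its neighbour in the order, down to Pdcd1 at 22.1 ± 10.2 per kb. In tumors the order by median was Cd47 (546 per kb), Lag3 (314), Sirpa (311), Tigit (253), Cd276 (225), Cd274 (73.9), Havcr2 (25.8), Ctla4 (5.96), Pdcd1lg2 (3.03) and Pdcd1 (2.95). Lag3 thus stood eighth of 10 in normal lung and the second in tumors, where its 252 to 720.2 per kb overlapped Cd47 (340.1 to 992 per kb) and Sirpa (145 to 654 per kb).

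**Figure D4:**
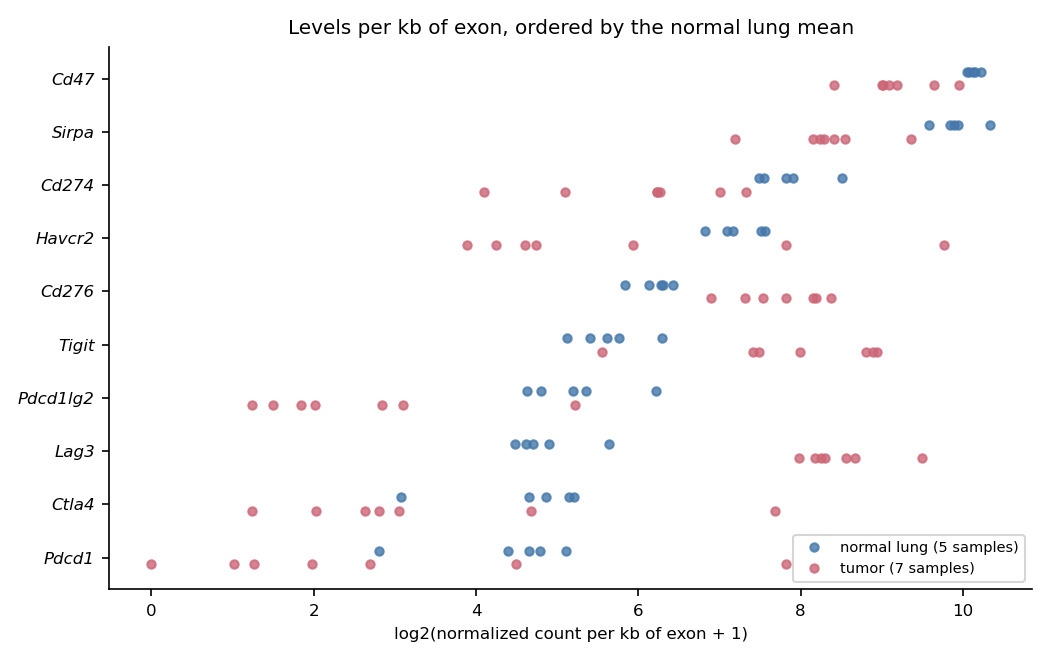
log2(normalized count per kb of exon + 1) (x axis) of the 10 genes, ordered by their normal lung mean, with 1 point per normal lung (blue) and per tumor (red). Lag3 moves from 21.3 to 49.0 per kb in normal lung to 252 to 720.2 per kb in tumors, while the tumor points of Cd47 and of Sirpa all lie to the left of the normal lung points.

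The genes of most like pattern were taken as those with the smallest mean absolute difference in centred log2 values over the 12 samples, among 16517 genes. For Lag3 they were Mtfr2, Cdc20 and Eme1 (0.25, 0.25 and 0.28 log2 units). For Cd276 they were Cyp2u1, Rbl1 and Qrsl1 (0.18 each), and for Cd47 Snx13, Usp25 and Gm10548 (0.13, 0.13 and 0.15). For Sirpa they were Sgms1, Gng12 and Ly96 (0.15, 0.15 and 0.16). For Cd274 they were Hrh2, Creb3l2 and H2-M3 (0.20, 0.23 and 0.24), the last a non-classical MHC class I gene. For Havcr2 they were Irf5, a transcription factor of macrophages and dendritic cells, Gm9530 and Fndc7 (0.27, 0.35 and 0.36), and for Pdcd1lg2 Nabp1, Gm32401 and Irgm2 (0.35, 0.36 and 0.36). The others had no gene within 0.35: Ctla4 was nearest to Dusp2, Gm1965 and Mab21l3 (0.39, 0.41 and 0.48), Pdcd1 to Timd4, Mpeg1 and Naaa (0.47, 0.54 and 0.55), and Tigit to the metallothionein genes Mt2 and Mt1 and to Foxc1 (0.49, 0.50 and 0.51).

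Genes that bind the checkpoint receptors or CD47 were mostly lower in tumor. Beside this and the following lists stand the shares over all genes, 31.4% higher and 30.1% lower in limma. They were 34.9% and 26.3% in edgeR, and 30.6% and 24.7% in DESeq2. A count near these shares is not a result about its list. Of 12 measured partners 8 fell, among them Nectin3, a nectin of the TIGIT system (log2 fold change -2.61, limma adjusted p = 8.90e-07), Lgals9, the galectin that binds TIM-3 (-3.26, 4.04e-06), and Sftpa1, a lung surfactant collectin that binds SIRP alpha (-11.95, 1.93e-06). None rose in limma, with 0 at an unadjusted p under 0.05, 0 in edgeR and 1 in DESeq2. The costimulatory ligands Cd80 and Cd86, which CTLA-4 competes for, were not called (-0.07 and -1.47, adjusted p = 0.884 and 0.308). Cd86 reached 2958 normalized counts in tumor 7 and was at most 656 in the other tumors. Thbs1, which binds CD47, and Fgl1, a ligand of LAG-3, were not called either (-0.97 and 1.25, adjusted p = 0.0811 and 0.0924).

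Among the other inhibitory receptors and ligands 12 of 15 fell in limma, 7 of 15 in edgeR and 5 of the 12 with an adjusted p in DESeq2, and 1 rose in each. Ido1, an enzyme that breaks down tryptophan, fell by 4.78 on the log2 scale (limma adjusted p = 2.66e-06), Klrc1, a receptor of NK cells, by 3.72 (1.07e-04) and Vtcn1, a B7 family ligand, by 4.32 (2.63e-04). Cd160, a receptor of NK and T cells, rose by 0.65 (0.0435). That call was lost in 12 of 22 alternatives, among them same-numbered tumors averaged or correlated. Cd160 shares 2.57% of its exon bases with Pdzk1 (mean 477) on the opposite strand. Cd24a and Nt5e were not called (0.24 and -0.03, adjusted p = 0.592 and 0.961). Of 12 costimulatory genes 6 fell in limma, against 4 of 9 tested in edgeR and 4 of 12 in DESeq2, and 0 rose (0 at an unadjusted p under 0.05, 1 in edgeR, 1 in DESeq2), led by Cd40lg (-4.60, 1.30e-06), its receptor Cd40 (-3.93, 4.18e-05) and Cd28 (-3.16, 1.14e-04).

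Interferon gamma is the main inducer of PD-L1, acting through JAK kinases and IRF1. Of 11 genes of that pathway 8 fell and 0 rose in limma (0 at an unadjusted p under 0.05, 0 in edgeR, 0 in DESeq2). Irf1 fell by 1.96 on the log2 scale (limma adjusted p = 1.71e-05), Jak1 by 1.43 (1.77e-05) and Ifngr1, a chain of the receptor, by 2.04 (5.59e-04). Jak2, Stat3 and Nlrc5 were not called (-0.28, -0.10 and -0.46, adjusted p = 0.478, 0.627 and 0.568). Of 7 genes listed as modifiers of PD-L1 or CD47 protein 2 fell and 2 rose. Cmtm6, which keeps PD-L1 at the surface, changed by -2.47 (limma adjusted p = 3.58e-06) and Spop, a ubiquitin ligase adaptor, by -1.25 (1.22e-05). Cop1, a ubiquitin ligase, changed by 0.67 (0.00394) and Qpct, a glutaminyl cyclase, by 1.20 (0.0212). Qpctl, the other glutaminyl cyclase listed, was not called (0.13, adjusted p = 0.471), and no value here shows that Qpct acts on CD47.

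Of 10 signalling genes below the receptors 6 fell in limma, 3 of 10 in edgeR and 3 of the 9 with an adjusted p in DESeq2, and 0 rose in any of the tools (0 at an unadjusted p under 0.05 in limma). Prkcq, a kinase of T cell receptor signalling, changed by -5.22 (limma adjusted p = 2.33e-04), Lyn, a kinase of B and myeloid cells, by -2.28 (6.78e-04) and Sh2d1a, an adaptor of T and NK cells, by -3.36 (0.00109). Sh2d1a shares 26.6% of its exon bases with Tenm1 on the opposite strand. Ptpn11, the phosphatase SHP-2 that PD-1 recruits, was not called (0.02, adjusted p = 0.894), nor were Csk, Grb2 and Fyn (-0.24, -0.24 and -0.02).

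Of 9 transcription factors linked to T cell exhaustion 5 fell and 2 rose in limma. Tox, which maintains exhausted T cells and is also expressed in developing brain, went from 119 ± 27.7 normalized counts in the normal lungs to 2511 ± 1105 in the tumors (SD, n = 5 and 7), a log2 fold change of 4.24 (limma adjusted p = 4.27e-07). Its 7 tumor values, from 760.0 to 3742, lay above all normal lungs, in tumors with Cd3e at 0 as well. Nr4a2 rose by 0.60 (0.0371), a call that was lost in 14 of 22 alternatives, among them same-numbered tumors averaged or correlated and each normal lung left out. Tcf7 changed by -3.26 (1.16e-05), Prdm1 by -3.50 (2.57e-05) and Batf by -3.74 (3.40e-04), while Nr4a1 and Nr4a3 were not called (0.14 and 1.01, adjusted p = 0.753 and 0.227). Over the 7 pathway lists 76 genes were tested, of which 5 rose, 47 fell and 24 were not called. Of all genes tested in limma 31.4% rose and 30.1% fell. The 76 pathway genes had a median log2 fold change of -2.03 against 0.04 over all genes. The 5 became 2 or 3 on leaving out normal lung 1, 2, 4 or 5 or tumor 1, 4 or 7. Beside them 8 of 9 T cell markers, 5 of 5 NK cell markers, 8 of 10 macrophage and monocyte markers and 4 of 6 dendritic cell markers fell in limma, and 5, 5, 5 and 1 in edgeR. The part of those cells in the pathway counts was not tested.

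**Figure D5:**
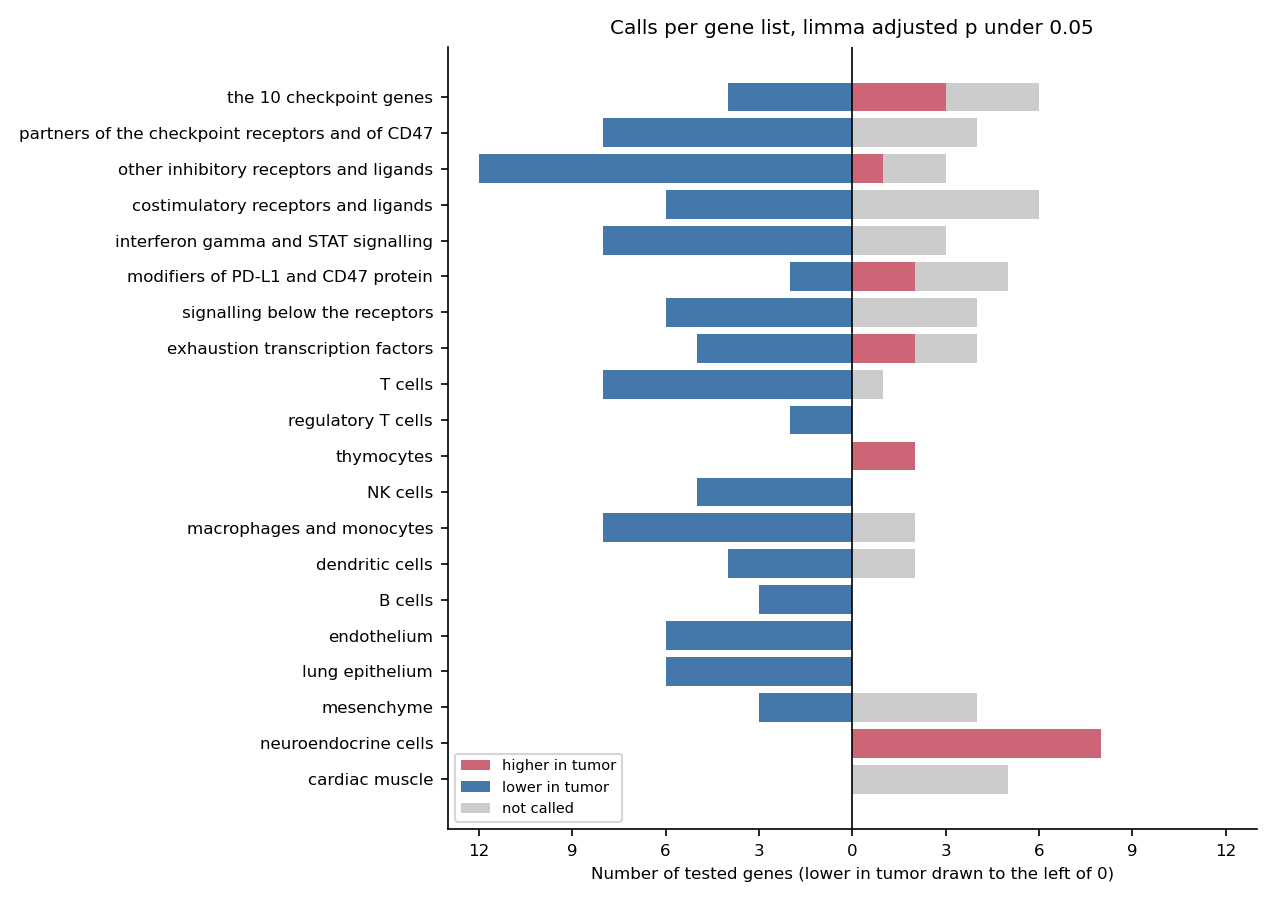
Number of tested genes (x axis) called higher in tumor (red), called lower (blue, drawn to the left of 0) or not called (grey) by limma at an adjusted p under 0.05, for the 10 checkpoint genes, the pathway lists and the cell type marker lists. Partners of the receptors show 8 lower and 0 higher of 12, whereas all 8 neuroendocrine markers are higher. Over all genes tested 30.1% were lower and 31.4% higher.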

How the data were processed

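RNA from 5 normal lungs and 7 tumors was measured, grouped by the labels. The deposited values are a signal of gene counts divided by size factors, 1 column per sample; featureCounts, DESeq2 and GRCm39 are named, without roles or versions, in the submitters' processing notes, and aligner, annotation and use of the strand are not given in the sources used here. Low values were whole multiples of 1 read (tolerance 0.01), so whole reads were recovered for 11 samples; for tumor 3 a read is worth 0.991, too near 1 to establish the step, and it was left out of count tests. Among the 11 samples with recovered reads no 2 of a group were alike within counting noise (25 pairs, smallest chi-square per degree of freedom 18.4); pairs with tumor 3 were not compared.

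Values were tested as log2(value + 1) with limma 3.58.1 (moderated, mean-variance trend; R 4.3.3), for genes of mean value at least 1, with Benjamini-Hochberg adjustment over 23674 genes and a threshold of 0.05. Ratios to marker lists were tested by exact two-sided permutation of samples (scipy 1.17.1). Alternatives were edgeR 4.0.16 and DESeq2 1.42.0 on recovered reads, another pseudocount, filter or scaling, same-numbered tumors averaged or correlated, trachea-titled tumors left out, and each sample left out. The test was tried on simulated data. Symbols came from GENCODE M21, for 29982 of 30399 genes; its build is GRCm38, so no gene coordinates are given, and gene spacing and overlap come from that older build. Of 154 genes listed 145 were found; the others are not analysed here.

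The 10 genes and all lists were chosen with earlier results of these data known. Named were the 10 genes, in each list the 3 with the lowest adjusted p per direction and those that differ in call from most of their list, and per checkpoint gene the 3 of most like pattern. Chromosomal neighbours, Cd8a and the totals of tumor 7 were chosen after values were seen. A search of the promoters for motifs is not reported here.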

Additional observations from a re-analysis of the deposited data

Results flagged for a closer look

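Ctla4 in normal lung 5 lay apart from the other normal lungs. Its log2(value + 1) was 4.19 against 5.84 in the nearest normal lung, a gap of 0.75 of the group's range, above the critical value of 0.71 for 5 samples. Ctla4 relative to the T cell list was also lowest there, at -3.17 against -1.98, a gap of 0.91 of the range. These were 2 of 38 groups tested, and chance flags about 1 in 20.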

How the results depend on the processing

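The calls of the 7 called checkpoint genes held in all 22 alternatives, and 3 of the 10 were higher in each. The number lower was 4, except 6 with same-numbered tumors averaged, 7 without the trachea-titled tumors and 4 to 7 on leaving out 1 sample, with 7 reached without tumor 7. In DESeq2 the log2 fold changes of Pdcd1, Ctla4 and Havcr2 were 0.97, 0.67 and 0.44, and in edgeR 1.09, 0.78 and 0.54; the cause was not tested. These 3 were called lower without the trachea-titled tumors (-2.77, -1.63 and -1.96). The 5 pathway genes called higher became 8 in DESeq2, 3 with same-numbered tumors averaged or correlated (correlation 0.304), 2 without the trachea-titled tumors and 2 to 6 on leaving out 1 sample; the cause was not tested. Pdcd1lg2 relative to macrophages and monocytes turned negative without normal lung 4 (-0.20), tumor 2 (-0.08), tumor 3 (-0.21) or tumor 5 (-0.02), within a range of -0.21 to 0.32 over samples left out. With equal column totals the median log2 fold change over all genes was 0.24. No paired analysis was possible because the replicate numbers follow accession order only and pair no samples. Depth limits Pdcd1 and Pdcd1lg2 in tumors 2 and 4, which rest on 0 to 3 reads. It also limits Pdcd1 in tumor 3, whose 1.98 normalized counts are under 3 reads if a read is worth 0.991 there.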
